A study of Mus musculus with 19 samples.

Results

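The T cell receptor (TCR) response genes studied here are 9 genes that T cells switch on when their antigen receptor is engaged: the nuclear receptors NR4A1, NR4A2 and NR4A3, the zinc finger factors EGR1, EGR2 and EGR3, the surface proteins CD69 and CD83, and NFATC1, a transcription factor of the NFAT family. They were chosen by symbol from the table of counts, which lists 24982 genes, and all 9 were among the 11464 genes that passed the filter on low counts. The table writes symbols in capitals, and its spelling is kept. The samples were regulatory T cells (Tregs) of adult Foxp3DTR mice, in which the Foxp3 locus also makes green fluorescent protein (GFP) and the diphtheria toxin receptor, so that all groups carried this allele. CD4+FoxP3-GFP+ cells were sorted by their CD44 staining from axillary, brachial and inguinal lymph nodes. They came 7 days after a burn of the back, or from uninjured mice that went through the same procedure with water at room temperature. There were 4 CD44high and 5 CD44low samples from uninjured mice, and 4 CD44high and 6 CD44low samples from injured mice, 19 in all. The labels do not say whether a sample was 1 mouse or a pool, so p-values measure the spread between these samples, which may be partly technical.

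Binding of peptide and MHC to the TCR raises calcium in the cell, calcineurin then removes phosphate from NFAT proteins, and these enter the nucleus and act on target genes. EGR and NR4A genes are immediate-early genes, transcribed without new protein synthesis, and their RNA turns over quickly. NR4A1 encodes Nur77, whose reporter mice are used as a gauge of recent TCR signals, and the NR4A factors as a group are needed for the Treg lineage. EGR2 and EGR3 restrain T cell activation, partly through genes linked to anergy. CD69 appears on the surface early after activation and holds T cells in the lymph node by removing the sphingosine phosphate receptor S1PR1 from the membrane. CD83, a membrane protein of the immunoglobulin superfamily also made by mature dendritic cells and B cells, is expressed by activated Tregs. NFATC1 is the NFAT gene that is itself induced by NFAT.

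Library totals ranged from 5582234 to 9433610 counts. Levels are given as CPM, the count scaled by the library total and edgeR's TMM factor. The sort was visible in the RNA. CD44 lay between 369 and 626 CPM in the 8 CD44high libraries and between 102 and 156 CPM in the 11 CD44low libraries, and FOXP3 lay between 47.7 and 181 CPM in all 19. Markers of other cells were also present. The 10 B cell markers summed to between 83.7 and 253 CPM and 10 macrophage and monocyte markers to between 34.1 and 269 CPM. The highest of both sums lay above the highest value of FOXP3 alone. The 8 markers of CD8 T and NK cells summed to between 70.0 and 104 CPM. The 7 markers of stroma and endothelium differed between the groups, at 59.3 to 74.3 CPM in CD44high and 186.5 to 219 CPM in CD44low Tregs without injury, and 78.5 to 115 and 135 to 231 CPM with it. Nearly all of this was PECAM1, while PDPN was at 0 in all groups and COL3A1 and CDH5 in both CD44low groups. The part of these markers in the differences described here was not tested. The libraries 1_2, 4_2 and 5_2 of the injured CD44low group carry a second number that the labels do not explain, and they stood apart from libraries 1, 2 and 5 for several of the genes, as described further on. Bulk RNA cannot tell apart fewer cells of a type and less RNA per cell.

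The RefSeq table of promoters, built on GRCm38.p6, held 4 of the 9 genes: NR4A1, NR4A2, NR4A3 and EGR2. The 250 bases before their start sites are shown because the NR4A genes differed widely in level and NR4A3 was called for injury in CD44low Tregs. NR4A1 lies at chr15:101266596-101266845 on the forward strand, NR4A2 at chr2:57124004-57124253 on the reverse strand, NR4A3 at chr4:48045055-48045304 on the forward strand, and 1 of 5 listed starts of EGR2 at chr10:67537619-67537868 on the forward strand. Each sequence runs 5′ to 3′ toward the gene, and capitals mark TGACG or its reverse complement CGTCA, the core of the cyclic AMP response element bound by CREB family factors.
NR4A1: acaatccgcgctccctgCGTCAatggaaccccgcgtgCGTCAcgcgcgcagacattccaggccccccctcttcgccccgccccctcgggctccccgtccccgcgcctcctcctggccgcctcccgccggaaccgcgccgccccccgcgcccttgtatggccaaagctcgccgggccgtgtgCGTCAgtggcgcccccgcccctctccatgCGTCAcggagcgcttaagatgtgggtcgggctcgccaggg
NR4A2: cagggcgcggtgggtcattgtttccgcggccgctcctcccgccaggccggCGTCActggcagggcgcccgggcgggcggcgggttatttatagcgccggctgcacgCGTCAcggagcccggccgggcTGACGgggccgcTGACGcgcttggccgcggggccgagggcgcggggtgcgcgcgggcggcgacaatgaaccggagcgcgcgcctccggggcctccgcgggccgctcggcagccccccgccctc
NR4A3: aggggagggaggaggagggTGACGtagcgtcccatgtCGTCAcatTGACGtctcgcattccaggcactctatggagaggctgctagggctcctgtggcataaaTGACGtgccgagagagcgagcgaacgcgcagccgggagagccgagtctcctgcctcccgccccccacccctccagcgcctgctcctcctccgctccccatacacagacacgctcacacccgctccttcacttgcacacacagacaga
EGR2: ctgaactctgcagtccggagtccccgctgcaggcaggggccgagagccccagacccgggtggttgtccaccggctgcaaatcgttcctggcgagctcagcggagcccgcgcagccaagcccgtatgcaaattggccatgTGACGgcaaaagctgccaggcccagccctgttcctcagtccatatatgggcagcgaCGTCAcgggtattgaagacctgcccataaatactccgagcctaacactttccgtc
Counted on both strands over 250 bases before to 50 bases after the start, TGACG occurred 4 times in each NR4A promoter, all as the reverse complement in NR4A1 and in both orientations in NR4A2 and NR4A3. Of 32851 promoters in the table, 20.8% held it at least once and 0.231% at least 4 times. The EGR2 promoter shown held it 2 times, at -111 and -55, counted from the start site. It was picked for these matches: of the 5 listed starts, 2 had no TGACG, and 1 of those 2 had no CArG box either. Between these matches, at -72, it held a CArG box, the site of serum response factor, which 1.63% of promoters held. The EGR motif GCGNGGGCG occurred 1 time in the NR4A1 and 1 time in the NR4A2 promoter, against 5.55% of promoters with at least 1. The full palindrome TGACGTCA was in none of the 4 sequences and in 1.79% of promoters, and the NR4A motif AAAGGTCA was in none of them and in 1.51%. The AP-1 motif TGANTCA was also in none of them and in 7.81%. The short NFAT core GGAAA, which 61.3% of promoters held, and the TATA box TATAAA, which 13.6% held, each occurred 1 time in NR4A2, and GGAAA 1 time in the EGR2 promoter shown. These are matches of letters only.

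The 9 genes spanned a wide range of levels. Divided by the length of the gene's merged exons in GENCODE vM21, CD83 was the most abundant in uninjured CD44high Tregs, at 121 ± 15.3 CPM per kb (SD, n = 4), followed by NFATC1 at 66.2 ± 4.88 CPM per kb. NR4A1 at 44.9 ± 7.01 and EGR1 at 43.9 ± 10.3 CPM per kb came next and lay within each other's spread, as did EGR2 at 23.9 ± 4.47 and CD69 at 22.001 ± 2.42. At the bottom were NR4A3, NR4A2 and EGR3, at 2.20 ± 1.01, 2.06 ± 0.217 and 1.83 ± 0.830 CPM per kb, which were not separable either. CD83 stood above 96.7% of the 11329 tested genes with a matched length on this scale and EGR3 above 21.8%.

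In uninjured CD44low Tregs the upper part of this order was flat. NFATC1 at 49.4 ± 5.95 CPM per kb (SD, n = 5), EGR1 at 47.2 ± 9.39, NR4A1 at 43.7 ± 9.88 and CD83 at 43.0 ± 2.92 could not be ranked against their spread. CD69 at 23.9 ± 4.32 and EGR2 at 20.3 ± 5.16 followed, and NR4A3, EGR3 and NR4A2 again closed the list at 3.02 ± 0.813, 2.84 ± 0.505 and 2.27 ± 0.815 CPM per kb. After injury CD83 had the highest mean in both subsets, at 196 ± 32.6 CPM per kb (SD, n = 4) in CD44high and 74.2 ± 15.2 CPM per kb (SD, n = 6) in CD44low Tregs. NFATC1 was second in injured CD44high Tregs at 81.5 ± 7.47 CPM per kb, while in injured CD44low Tregs EGR1, NFATC1, CD69 and NR4A1 lay together between 43.2 and 50.05 CPM per kb. Among NR4A genes, NR4A1 made up between 89.1% and 94.0% of the summed level per length in the 4 groups. Among EGR genes, EGR1 made up between 62.9% and 67.9%, EGR2 between 28.7% and 34.5%, and EGR3 between 2.15% and 4.11%. Ranks depend on the transcript taken as the gene: with the longest transcript in place of merged exons, 21 of the 36 ranks were kept, and in injured CD44low Tregs NFATC1 at 77.5 then stood level with CD83 at 77.0 CPM per kb.

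**Figure D1:**
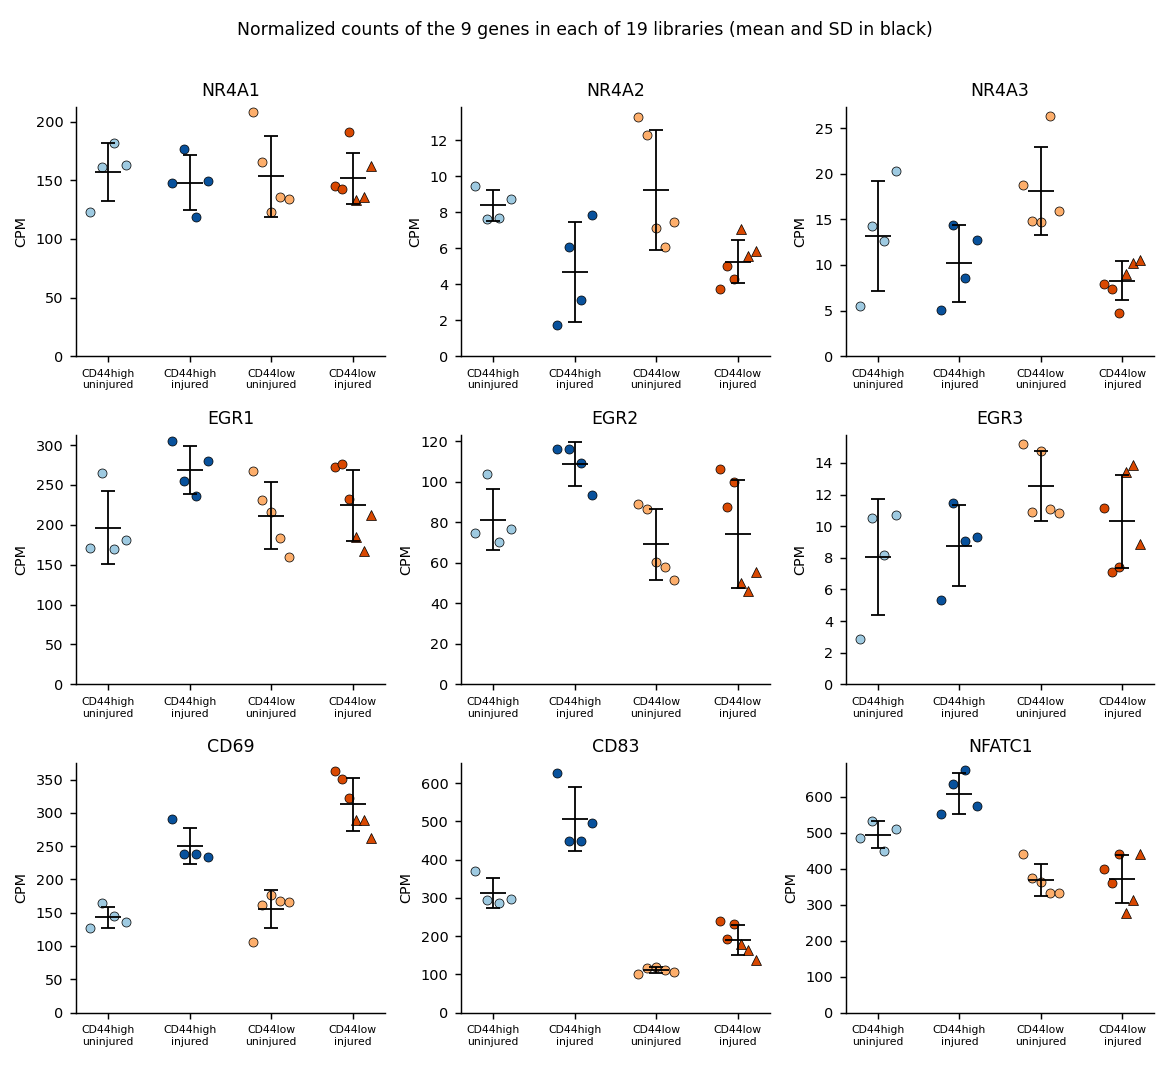
CPM of each gene in each library, by group, with the group mean and SD in black; triangles are the injured CD44low libraries 1_2, 4_2 and 5_2. CD69 and CD83 lie higher in injured than in uninjured libraries of both subsets without overlap, CD83 and NFATC1 lie higher in CD44high Tregs, and NR4A2 and NR4A3 are counted at few reads, at most 13.3 and 26.3 CPM.

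The first question was how the subsets differed without injury. In uninjured mice 2 of the 9 genes were higher in CD44high than in CD44low Tregs, CD83 and NFATC1, beside 24.7% of all tested genes called higher. None was called lower, beside 21.3% of all tested genes; the only unadjusted p-values under 0.05 in edgeR were those 2, and DESeq2 also called 2. The median log2 fold change of the 9 genes was -0.11, against 0.01 over all genes.

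CD83 had 370, 294, 286 and 298 CPM in CD44high libraries 2 to 5 of uninjured mice, and 100.4, 118, 118, 110 and 107 CPM in CD44low libraries 1 to 5. Every CD44high library lay above every CD44low library. For this and the other comparisons between groups, the share of all tested genes without overlap was not counted. The difference was 2.82-fold, a log2 fold change of 1.49 (SE 0.139, adjusted p = 5.31e-09). This and all further adjusted p-values come from the quasi-likelihood test of edgeR, adjusted by Benjamini-Hochberg over all tested genes unless DESeq2 is named. Dendritic cells also make CD83, and their 10 markers summed to between 38.0 and 58.7 CPM in these CD44high libraries, led by SIGLECH, against between 0.844 and 6.30 CPM in the CD44low libraries, where CLEC9A was at 0. B cell markers overlapped, between 106 and 219 CPM against between 83.7 and 176 CPM. The part of these cells in the CD83 difference was not tested.

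NFATC1 had 486, 533, 448 and 510 CPM in uninjured CD44high libraries 2 to 5, and 441, 375, 363, 333 and 332 CPM in CD44low libraries 1 to 5. The groups did not overlap, but CD44low library 1 lay just under the lowest CD44high library. CD44high Tregs were higher by 0.42 on the log2 scale (SE 0.123, adjusted p = 0.00693), or 1.34-fold.

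For EGR3 the higher values were in CD44low Tregs. It had 2.85, 10.5, 8.17 and 10.7 CPM in uninjured CD44high libraries and 15.2, 10.9, 14.8, 11.1 and 10.8 CPM in CD44low libraries. The groups did not overlap, but the gap was narrow and the counts low, between 16 and 104 reads, and the log2 fold change of -0.63 (95% interval -1.26 to 0.00306) did not pass (adjusted p = 0.0967). NR4A1, NR4A2, NR4A3, EGR1, EGR2 and CD69 overlapped between the subsets. Their log2 fold changes lay between -0.45 for NR4A3 (95% interval -1.09 to 0.20) and 0.24 for EGR2 (95% interval -0.22 to 0.69). For NR4A1 RNA the log2 fold change was 0.04 with a 95% interval from -0.28 to 0.35. TCR signals themselves were not measured.

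**Figure D2:**
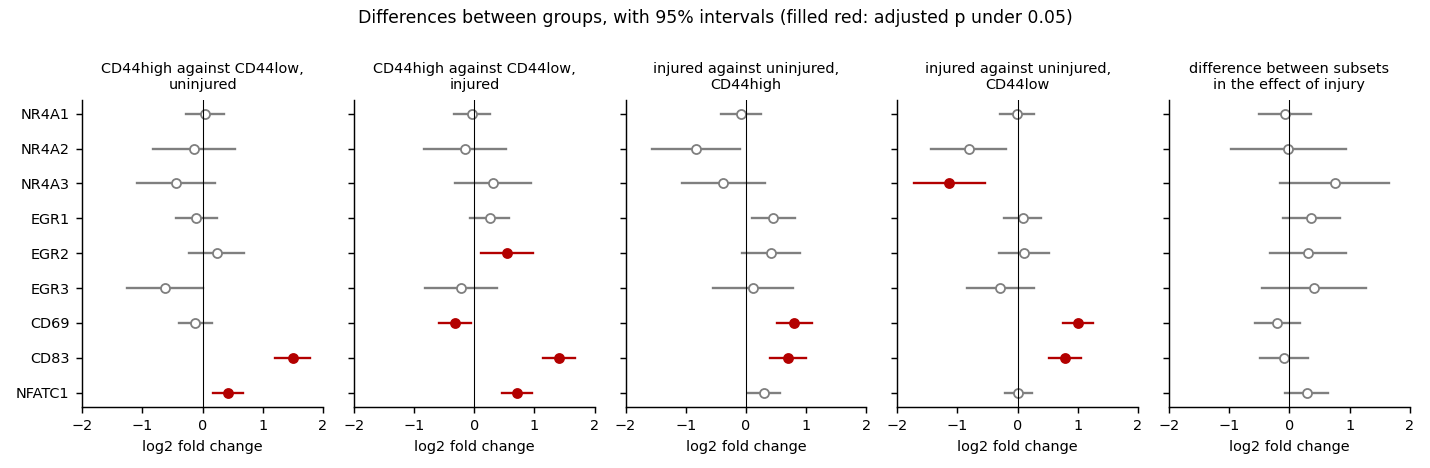
Log2 fold change of each gene in the 5 comparisons, with 95% intervals; filled red points passed at an adjusted p of 0.05 (edgeR). CD83 was higher in 4 of the 5 comparisons and NR4A1 lay near 0 in all of them.

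In injured mice 3 of the 9 genes were higher in CD44high Tregs, CD83, NFATC1 and EGR2, beside 20.1% of all tested genes. CD69 was lower, as 1 of the 9 genes, beside 17.2% of all tested genes. CD83 had 626, 450, 448 and 496 CPM in CD44high libraries 2 to 5, and a lowest, median and highest value of 138, 186 and 239 CPM in the 6 CD44low libraries. The groups stood well apart, by a log2 fold change of 1.40 (SE 0.130, adjusted p = 8.05e-09). Dendritic cell markers summed to between 23.4 and 31.4 CPM in these CD44high and between 2.07 and 17.1 CPM in these CD44low libraries.

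NFATC1 had 552, 635, 674 and 574 CPM in injured CD44high libraries, all above the CD44low libraries with a lowest, median and highest value of 278, 380 and 441 CPM. Its log2 fold change was 0.71 (SE 0.117, adjusted p = 3.75e-05), or 1.64-fold. NFATC1 and CD83 were called between the subsets in every alternative fit and without any 1 of the 19 libraries, but NFATC1 did not reach a 2-fold difference in either comparison.

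The calls for EGR2 and CD69 between injured subsets were not of that kind. EGR2 had 116, 116, 109 and 93.3 CPM in CD44high libraries 2 to 5 and 106, 87.7 and 99.7 CPM in CD44low libraries 1, 2 and 5, which overlapped, but 49.8, 46.0 and 55.7 CPM in CD44low libraries 1_2, 4_2 and 5_2. The log2 fold change was 0.55 (SE 0.209, adjusted p = 0.0415) over all 6 CD44low libraries, 0.15 (adjusted p = 0.545) without the 3 libraries with a second number, and 1.08 (adjusted p = 0.000114) with these alone. The call was also lost (adjusted p between 0.0501 and 0.106) without any 1 of 11 libraries: 2, 3 or 5 of uninjured CD44high, 3 or 4 of uninjured CD44low, 2, 3 or 4 of injured CD44high, and 1_2, 4_2 or 5_2 of injured CD44low. CD69 had 291, 238, 239 and 234 CPM in CD44high libraries and 362, 351, 323, 289, 289 and 262 CPM in CD44low libraries 1, 2, 5, 1_2, 4_2 and 5_2, with overlap. Its log2 fold change was -0.32 (SE 0.126, adjusted p = 0.0475), -0.46 (adjusted p = 0.0114) without the libraries with a second number and -0.19 (adjusted p = 0.323) with them alone. The CD69 call was lost (adjusted p between 0.0581 and 0.128) without any 1 of 7 libraries: 4 of uninjured CD44high, 3, 4 or 5 of injured CD44high, and 1, 2 or 5 of injured CD44low.

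The second question was what injury changed within each subset. In CD44high Tregs 2 of the 9 genes rose, CD69 and CD83, beside 1.06% of all tested genes. None fell, beside 1.33% of all tested genes, and NR4A2 was the only gene of the 9 with a negative log2 fold change and an unadjusted p under 0.05 by edgeR. In CD44low Tregs 2 of the 9 genes rose, again CD69 and CD83, beside 4.24% of all tested genes, and NR4A3 fell, 1 of the 9 beside 3.36%. Without the 3 CD44low libraries that carry a second number, 4 genes were called in CD44low Tregs, EGR2 being added, and with these alone 2, CD69 and CD83. Over all genes edgeR called 1748 without these libraries and 445 with them alone, in place of 871.

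CD69 had 127, 164, 144 and 136 CPM in uninjured CD44high libraries 2 to 5 and 291, 238, 239 and 234 CPM in injured ones. In CD44low Tregs it had 106, 162, 176, 168 and 166 CPM in uninjured libraries 1 to 5 and the 262 to 362 CPM given above in injured ones. No injured library of either subset reached down to an uninjured one. The rise was 1.75-fold in CD44high (log2 0.81, SE 0.139, adjusted p = 0.00157) and 2.01-fold in CD44low Tregs (log2 1.01, SE 0.120, adjusted p = 2.69e-05). CD69 was called in both subsets in every alternative fit, although the rise in CD44high Tregs stayed under 2-fold, and with the libraries of a second number alone its log2 fold change in CD44low Tregs was 0.87.

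CD83 rose alongside it. From the values given above, injured CD44high libraries (448 to 626 CPM) all lay over uninjured ones (286 to 370 CPM), and injured CD44low libraries (138 to 239 CPM) all lay over uninjured ones (100.4 to 118 CPM). The rise was 1.62-fold in CD44high (log2 0.70, SE 0.145, adjusted p = 0.00795) and 1.72-fold in CD44low Tregs (log2 0.79, SE 0.127, adjusted p = 0.00100). Dendritic cell markers summed to between 38.0 and 58.7 CPM without and between 23.4 and 31.4 CPM with injury in CD44high, and to between 0.844 and 6.30 and between 2.07 and 17.1 CPM in CD44low Tregs, where the medians were 2.70 and 4.78 CPM. Macrophage and monocyte markers ran from 81.2 to 151 CPM without and from 108 to 269 CPM with injury in CD44high, and from 34.1 to 52.7 and from 41.5 to 170 CPM in CD44low Tregs. Neutrophil markers ran from 0 to 0.834 and from 3.66 to 20.3 CPM in CD44high, and from 0 to 1.69 and from 0 to 31.6 CPM in CD44low Tregs. Their part in the rise of CD69 and CD83 was not tested.

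Of the NR4A genes, NR4A3 alone was called for injury, in CD44low Tregs, and all 3 had negative log2 fold changes in both subsets; differences between the 3 were not tested. NR4A1 had 123, 162, 182 and 163 CPM in uninjured and 148, 177, 119 and 149 CPM in injured CD44high libraries 2 to 5. In CD44low Tregs its lowest, median and highest values were 123, 136 and 209 CPM without and 133, 144 and 191 CPM with injury. The groups overlapped throughout. The log2 fold change of injury was -0.09 (95% interval -0.42 to 0.24) in CD44high and -0.02 (95% interval -0.30 to 0.27) in CD44low Tregs, and the second of these changed sign with DESeq2's scaling.

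NR4A3 had 18.8, 14.8, 14.8, 26.3 and 15.9 CPM in uninjured CD44low libraries 1 to 5. In injured CD44low libraries it had 7.89, 7.35 and 4.71 CPM (1, 2 and 5) and 8.96, 10.2 and 10.5 CPM (1_2, 4_2 and 5_2). All injured libraries lay below all uninjured ones. The fall was 2.19-fold (log2 -1.13, SE 0.287, adjusted p = 0.0196), from 94 to 183 reads a library to 33 to 70. The call was lost without uninjured CD44low library 4 (log2 -0.93, adjusted p = 0.0618) and with the libraries of a second number alone (log2 -0.85, adjusted p = 0.161). In CD44high Tregs NR4A3 had 5.53, 14.2, 12.7 and 20.3 CPM in uninjured and 5.05, 14.4, 8.62 and 12.7 CPM in injured libraries, with full overlap and a log2 fold change of -0.38 (adjusted p = 0.654). For NR4A3 the effects in CD44high and CD44low Tregs differed by 0.76 on the log2 scale (95% interval -0.15 to 1.66, adjusted p = 0.561).

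NR4A2 had 9.45, 7.63, 7.67 and 8.73 CPM in uninjured and 1.73, 6.04, 3.13 and 7.86 CPM in injured CD44high libraries 2 to 5. In CD44low Tregs it had 13.3, 12.3, 7.10, 6.04 and 7.43 CPM in uninjured libraries and between 3.72 and 7.07 CPM in the 6 injured ones. Both pairs of groups overlapped. The log2 fold change was -0.83 in CD44high (95% interval -1.57 to -0.10, adjusted p = 0.254) and -0.82 in CD44low Tregs (95% interval -1.44 to -0.19, adjusted p = 0.0913), so neither passed. With between 13 and 85 reads a library, NR4A2 had the fewest counts of the 9 genes.

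Several other immediate-early and stress genes fell after injury. Of 19 such genes that cell handling is known to induce, 17 were tested, and 6 fell and 0 rose in CD44high Tregs, with 7 falling and 0 rising in CD44low Tregs. Over all tested genes 1.33% fell and 1.06% rose in CD44high, and 3.36% and 4.24% in CD44low Tregs. The list's median log2 fold changes were -0.92 and -0.48, against -0.02 and 0.01 over all genes. For the direction with no call, 3 of the 17 genes had a positive value in CD44high and 1 in CD44low Tregs. In CD44high Tregs ZFP36, an RNA decay factor, fell from 827 ± 46.5 to 374 ± 25.4 CPM (adjusted p = 0.000137), KLF6 from 382 ± 41.7 to 202 ± 4.07 CPM (adjusted p = 0.000137) and the phosphatase gene DUSP1 from 722 ± 178 to 248 ± 33.5 CPM (adjusted p = 0.00191; SD, n = 4 each). In CD44low Tregs the heat shock genes HSPA1A and HSPA1B fell from 13.9 ± 13.8 to 0.307 ± 0.258 CPM (adjusted p = 8.55e-05) and from 34.0 ± 26.1 to 2.32 ± 1.16 CPM (adjusted p = 0.000137), and JUN fell from 433 ± 44.9 to 178 ± 95.98 CPM (adjusted p = 0.00355; SD, n = 5 and 6). With the libraries of a second number left out 12 genes of this list were called in CD44low Tregs, and with them alone 3. Over all genes edgeR called 1748 and 445 in these fits, in place of 871 with all libraries. The whole list summed to between 5510 and 6845 CPM in uninjured libraries and between 3444 and 4012 CPM in injured libraries, except injured CD44low libraries 1_2, 4_2 and 5_2 with 5560, 4720 and 5441 CPM. The fall of NR4A3 and the negative values of NR4A2 had the direction of this list, and the rise of CD69 and CD83 the opposite one. EGR1 and EGR2, not called, had positive log2 fold changes, of 0.45 and 0.42 in CD44high and 0.09 and 0.11 in CD44low Tregs. The CD44low values turned negative with the libraries of a second number alone. NR4A1 was at -0.09 in CD44high and -0.02 in CD44low Tregs, EGR3 at 0.12 and -0.29 and NFATC1 at 0.30 and 0.01. The part of the list in these results was not tested.

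**Figure D3:**
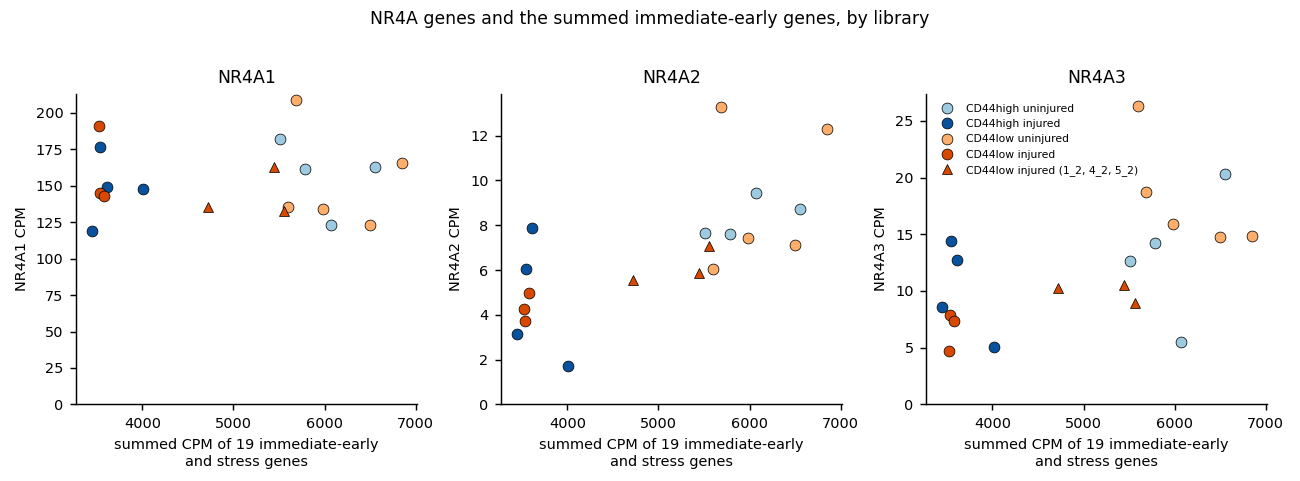
CPM of NR4A1, NR4A2 and NR4A3 against the summed CPM of the 19 immediate-early and stress genes in each library, coloured by group; triangles are the injured CD44low libraries 1_2, 4_2 and 5_2. Uninjured libraries lie at 5510 CPM or more on the horizontal axis, injured ones at 4012 CPM or less apart from the triangles, and NR4A1 is spread alike on both sides.

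The EGR genes showed no call for injury in either subset. EGR1 had 171, 265, 169 and 181 CPM in uninjured and 305, 255, 236 and 280 CPM in injured CD44high libraries 2 to 5. Only uninjured library 3 reached into the injured range. Its log2 fold change was 0.45 (95% interval 0.09 to 0.81), with an unadjusted p of 0.0154 and an adjusted p of 0.190, both by edgeR. In CD44low Tregs EGR1 ran from 159 to 268 CPM without and from 167 to 276 CPM with injury, a log2 fold change of 0.09 that turned to -0.14 (adjusted p = 0.650) with the libraries of a second number alone. EGR2 had 74.7, 104, 70.2 and 76.6 CPM in uninjured CD44high libraries 2 to 5, against the 93.3 to 116 CPM given above, a log2 fold change of 0.42 (95% interval -0.06 to 0.90, adjusted p = 0.409).

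In CD44low Tregs the value for EGR2 changed with the libraries taken. Uninjured libraries 1 to 5 had 89.3, 86.5, 60.2, 57.9 and 51.3 CPM. Its log2 fold change after injury was 0.11 (adjusted p = 0.777) over all libraries, 0.50 (adjusted p = 0.0441) without the libraries of a second number and -0.43 (adjusted p = 0.170) with these alone. EGR3 had between 2.85 and 10.7 CPM in uninjured and between 5.31 and 11.4 CPM in injured CD44high, and between 10.8 and 15.2 and between 7.10 and 13.8 CPM in CD44low Tregs. Its log2 fold changes were 0.12 and -0.29 (95% intervals -0.54 to 0.78 and -0.85 to 0.26).

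NFATC1 was the gene whose injured and uninjured CD44high libraries did not overlap without reaching a call. How many of all tested genes did the same was not counted. The values given above ran from 448 to 533 CPM without and from 552 to 674 CPM with injury. The log2 fold change was 0.30 (95% interval 0.03 to 0.57, adjusted p = 0.263), and 0.33 (adjusted p = 0.0484) where the fit held these 2 groups alone. In CD44low Tregs it ran from 332 to 441 and from 278 to 441 CPM, with a log2 fold change of 0.01 (95% interval -0.22 to 0.24) whose sign changed with the libraries used.

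Whether the effect of injury differed between the subsets was tested for each gene. For this difference edgeR called 0 of the 9, beside 0.645% of all tested genes, and DESeq2 called 0, beside 215 of all genes. An unadjusted p under 0.05 by edgeR was found for 0 of the 9 and for 1247 of all 11464 tested genes. The smallest unadjusted p-values were 0.0982 for NR4A3, 0.106 for NFATC1 and 0.120 for EGR1 in edgeR's fit, with differences on the log2 scale of 0.76, 0.29 and 0.37. The 95% intervals were wide, from -0.97 to 0.93 for NR4A2 and from -0.58 to 0.17 for CD69. The comparisons share groups, so values of 1 gene in several of them are not independent.

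Within injured CD44low Tregs, 4 of the 9 genes were higher in every one of libraries 1, 2 and 5 than in any of 1_2, 4_2 and 5_2: EGR1, EGR2, CD69 and CD83. Over all tested genes 9.96% were. NR4A2 and NR4A3, 2 of the 9, were lower in the same sense, beside 9.37% of all genes. EGR2 showed the largest ratio of means among the 9, 1.94, against 1.38 for EGR1, 1.38 for CD83 and 1.23 for CD69. For NR4A2 and NR4A3 the ratios were 0.702 and 0.671. NR4A1, EGR3 and NFATC1 overlapped. These are 3 libraries against 3, set apart by a label with no stated meaning, and were not tested.

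**Figure D4:**
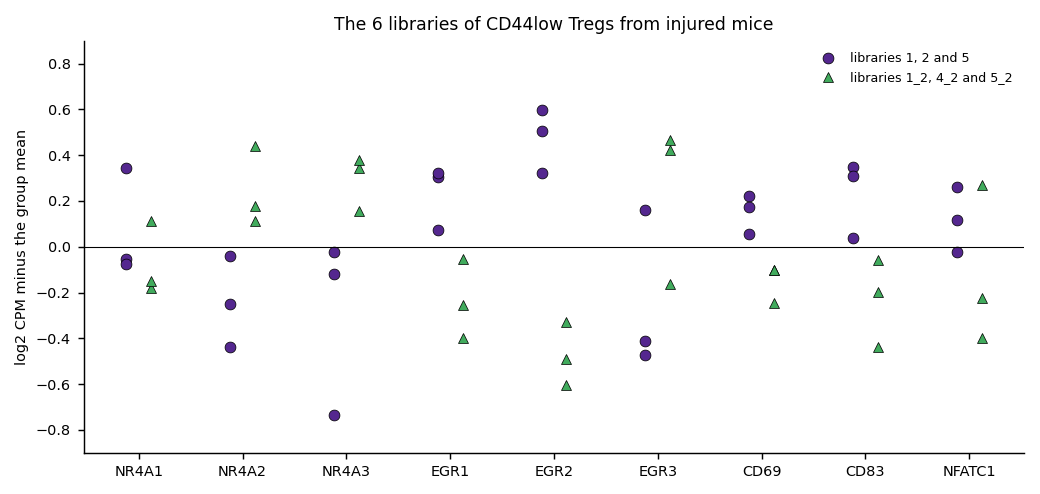
Deviation of each gene's log2 CPM from the mean of the injured CD44low group in its 6 libraries; circles are libraries 1, 2 and 5 and triangles 1_2, 4_2 and 5_2. The circles lie above the triangles for EGR1, EGR2, CD69 and CD83 and below them for NR4A2 and NR4A3.

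Within groups, the 9 genes did not vary as 1 unit. Over 19 libraries, after each group's mean was removed, the 36 pairs had a median Pearson's r of 0.02, with 18 pairs positive and a range from -0.69 to 0.83. EGR1 and EGR2 were the closest pair (r = 0.83), followed by NR4A3 and EGR3 (r = 0.78) and by EGR2 and NFATC1 (r = 0.65). NR4A1 went moderately with NFATC1, EGR2 and EGR1 (r = 0.495, 0.48 and 0.43). CD69 and CD83 went together (r = 0.53). CD83 ran against NR4A3 (r = -0.69) and CD69 against NR4A2 (r = -0.64). The libraries shared their group's processing, and the points include the set-apart injured CD44low libraries, so these values describe the libraries only.

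**Figure D5:**
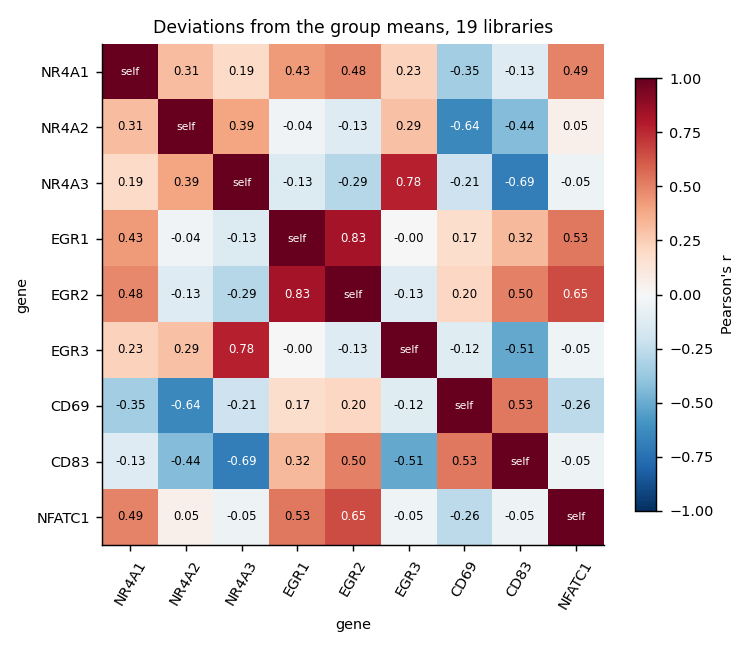
Pearson's r between genes of their deviations from the group means in log2 CPM, over 19 libraries. EGR1, EGR2, NFATC1 and NR4A1 are positive with each other, NR4A3 with EGR3 (0.78), and CD83 is negative with NR4A3 (-0.69).

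Across all 19 libraries, groups included, the genes whose log2 CPM was most like each of the 9 were found among the other tested genes. For CD83 they were TNFRSF9, which encodes the costimulatory receptor 4-1BB (r = 0.976), and CLDND1 (r = 0.972). For NFATC1 they were GPR107 (r = 0.932) and HIF1A, the hypoxia-inducible factor (r = 0.920). CD69 was most like CCT4, a chaperonin subunit (r = 0.904), and the stress gene DDIT4 (r = 0.877), NR4A3 most like HELB (r = 0.874) and DHX9 (r = 0.866), both helicases, and EGR2 most like COL4A3BP (r = 0.874) and SPCS3 (r = 0.848). NR4A2 followed TOB2 (r = 0.840) and PAM (r = 0.832), EGR3 followed PFAS (r = 0.821) and PALM3 (r = 0.803), and EGR1 followed MS4A4D (r = 0.734) and THA1 (r = 0.720). NR4A1 had the weakest partners, TGM4 (r = 0.707) and IMMT (r = 0.679). For EGR1 alone another of the 9 was closer than any outside gene, EGR2 at r = 0.799. With 11464 genes searched over 19 libraries, the highest values are picked from many.

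Genes around the 9 were counted from lists. Of 20 genes of the calcineurin and NFAT pathway, all tested, edgeR called 0 for injury in CD44high Tregs. Over all tested genes 1.06% rose and 1.33% fell there. An unadjusted p under 0.05 by edgeR was found for 1 of the 20, beside 1736 of all 11464 tested genes. DESeq2 called 1 of the 20, beside 477 of all genes. The 3 of smallest p were the calcineurin subunits PPP3CA, at 91.3 ± 8.50 after 117 ± 7.83 CPM (log2 -0.36, adjusted p = 0.0860, and 0.0305 by DESeq2) and PPP3CB (log2 -0.41, adjusted p = 0.393), and the calcineurin regulator RCAN3 (log2 -0.28, adjusted p = 0.432). In CD44low Tregs 2 fell and 0 rose, beside 3.36% and 4.24% of all tested genes: RCAN3 from 130 ± 4.87 to 89.0 ± 17.2 CPM (log2 -0.55, adjusted p = 0.0158) and GSK3B, a kinase that sends NFAT out of the nucleus (log2 -0.51, adjusted p = 0.00846). With the libraries of a second number alone the log2 fold changes were -0.46 and -0.46 and neither passed (adjusted p = 0.110 and 0.0721). The calcium channel gene ITPR2 came next (log2 -0.35, adjusted p = 0.120, and 0.0192 without injured CD44low library 5_2). Between subsets, 2 of the 20 were higher and 10 lower in uninjured CD44high Tregs and 0 higher and 6 lower in injured ones, beside the 24.7% higher and 21.3% lower of all tested genes without injury and 20.1% and 17.2% with it, while NFATC1 itself was higher in both.

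Of 15 corepressors and targets of EGR factors, 14 were tested. In CD44high Tregs after injury 1 rose, IZUMO1R, the folate receptor 4 gene, from 402 ± 19.6 to 684 ± 104 CPM (log2 0.77, adjusted p = 0.00105), and 1 fell, NDRG1, from 97.4 ± 5.89 to 61.6 ± 3.01 CPM (log2 -0.66, adjusted p = 0.0329). The NDRG1 call was lost (adjusted p between 0.0511 and 0.101) without any 1 of 9 libraries: 2, 3, 4 or 5 of uninjured CD44high, 2, 3, 4 or 5 of injured CD44high, and 2 of injured CD44low. NFIL3 came next (log2 -0.54, adjusted p = 0.125). In CD44low Tregs 2 rose and 1 fell: IZUMO1R from 513 ± 36.6 to 706 ± 124 CPM (log2 0.46, adjusted p = 0.0133), FASL, the death receptor ligand (log2 1.05, adjusted p = 0.0245), and the EGR corepressor NAB2, which fell from 126 ± 18.5 to 78.3 ± 7.87 CPM (log2 -0.69, adjusted p = 0.00120). The FASL call was lost (adjusted p between 0.0503 and 0.0573) without uninjured CD44low library 2 or 4 or injured CD44low library 1_2, and with the libraries of a second number alone, where the log2 fold change was 1.07 (adjusted p = 0.0839). These injury counts stand beside 1.06% of all tested genes rising and 1.33% falling in CD44high, and 4.24% and 3.36% in CD44low Tregs. Between subsets 6 of the 14 were higher and 5 lower in uninjured CD44high Tregs (all tested genes, 24.7% and 21.3%), and 6 higher and 3 lower in injured ones (20.1% and 17.2%).

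Of 30 other genes induced by TCR signals, 28 were tested, and 5 rose and 0 fell after injury in CD44high Tregs, with 10 rising and 0 falling in CD44low Tregs. Over all tested genes 1.06% rose and 1.33% fell in CD44high, and 4.24% and 3.36% in CD44low Tregs. Negative values were found for 10 and 14 of the 28. LAD1 (log2 0.89, adjusted p = 0.00305), PDCD1, which encodes PD-1 and rose from 145 ± 12.4 to 272 ± 26.8 CPM (log2 0.91, adjusted p = 0.00458), and TNFRSF9, which rose from 516 ± 35.6 to 786 ± 98.0 CPM (log2 0.61, adjusted p = 0.00608), led in CD44high Tregs. In CD44low Tregs the costimulatory receptor gene ICOS rose from 133 ± 18.7 to 242 ± 56.3 CPM (log2 0.86, adjusted p = 0.000342), the checkpoint receptor gene CTLA4 from 211 ± 26.5 to 350.1 ± 59.6 CPM (log2 0.73, adjusted p = 0.000634) and NFKBIA from 419 ± 25.3 to 570.4 ± 79.6 CPM (log2 0.45, adjusted p = 0.00870). The median log2 fold change of this list was 0.20 in CD44high and -0.02 in CD44low Tregs, against -0.02 and 0.01 over all genes. With the libraries of a second number alone 7 were called in CD44low Tregs, beside 445 of all genes in place of 871. Between subsets 14 were higher and 6 lower in uninjured CD44high Tregs (all tested genes, 24.7% and 21.3%), and 16 higher and 5 lower in injured ones (20.1% and 17.2%).

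The 4 genes tied to CD69 and exit from the lymph node were S1PR1, the receptor that CD69 binds, S1PR4, the transcription factor gene KLF2 and the G protein gene GNAI2. By edgeR 0 of 4 were called after injury in either subset. Over all tested genes 1.06% rose and 1.33% fell in CD44high, and 4.24% and 3.36% in CD44low Tregs. An unadjusted p under 0.05 by edgeR was found for 2 of the 4 in CD44high and 1 in CD44low Tregs. Over all 11464 tested genes it was found for 1736 and 2986. DESeq2 called 1 of the 4 in each subset, beside 477 and 1453 of all genes. In CD44high Tregs GNAI2 had a log2 fold change of -0.27 (adjusted p = 0.0972, and 0.0297 without the libraries of a second number), KLF2 of -0.39 (adjusted p = 0.106, and 0.0205 without the libraries of a second number) and S1PR4 of -0.24 (adjusted p = 0.547). In CD44low Tregs S1PR1 was at 859 ± 118 after 1062 ± 63.6 CPM (log2 -0.31, adjusted p = 0.0525), S1PR4 at a log2 fold change of -0.16 (adjusted p = 0.496) and GNAI2 at 0.05 (adjusted p = 0.708). S1PR1 was called without injured CD44high library 3 (adjusted p = 0.0466) or injured CD44low library 2 (adjusted p = 0.0498), and with the libraries of a second number alone (log2 -0.44, adjusted p = 0.0229). S1PR4 was called without these libraries (log2 -0.48, adjusted p = 0.0229) and had a log2 fold change of 0.13 (adjusted p = 0.615) with them alone. Between subsets 1 of the 4 was higher and 2 lower in uninjured CD44high Tregs (all tested genes, 24.7% and 21.3%). In injured ones 0 were higher and 2 lower (20.1% and 17.2%). S1PR1 and KLF2 were lower in CD44high than in CD44low Tregs with and without injury. The log2 differences were -0.97 and -0.94 in uninjured mice, and -0.74 and -1.32 in injured mice. GNAI2 was higher without injury (log2 0.45, adjusted p = 6.19e-05) and not called with it (log2 0.13, adjusted p = 0.174). S1PR4 was called in neither (log2 -0.04 and -0.11).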

How the data were processed

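The authors deposited raw counts of reads per gene, made with STAR 2.5 in the VIPER workflow, without normalization and with replicates kept apart; bcl2fastq 2.18 is named in the submitters' processing notes. These name 2 builds, mm9 and mm10, with no role, so coordinates come only from RefSeq (GRCm38.p6). RNA came from sorted cells by SMART-Seq cDNA and Swift 2S libraries, which carry no molecular identifiers, so counts can hold PCR copies. Depth lay between 5582234 and 9433610 counts per library. In 26 rows the symbol had turned into a date; these stayed in the fit and are not named.

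Counts were analysed in R 4.3.3 with edgeR 4.0.16 (minimum count 10, TMM factors, 1 mean per group, 19 libraries, no covariate, no replicate block). Groups were compared by the two-sided quasi-likelihood test with Benjamini-Hochberg adjustment over 11464 genes, and a gene was called at an adjusted p under 0.05. Intervals are 95%. Log2 CPM used a prior count of 2. DESeq2 1.42.0 was an alternative, with RLE factors, no filter, the compared groups alone, replicate blocks, thinning to the smallest total, the second-numbered libraries left out, alone or summed, a 2-fold threshold, and each library left out. The test was run first on simulated counts in which few genes, drawn at random from all tested genes, were changed. Changes of 1.5-fold were recovered at 16.4% for injury in CD44high, 43.3% in CD44low Tregs and 4.48% for the difference. For 2-fold changes the values were 58.2%, 83.6% and 52.2%. Between uninjured and injured subsets 29.9% and 23.9% were recovered at 1.5-fold, and 53.7% and 64.2% at 2-fold. Figures used Python 3.11.15 and matplotlib 3.10.9.

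The 9 genes and the lists were chosen with earlier results of these data known, so their calls are no independent evidence. Named were all 9 genes, the 3 genes of smallest p per list and subset for injury, and for each of the 9 the 2 most alike outside genes. Other genes named are markers, and S1PR1, KLF2, GNAI2 and S1PR4 between subsets, which were added after their values were seen. EGR1, EGR3, CD69, CD83 and NFATC1 had no entry in the promoter table.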

Additional observations from a re-analysis of the deposited data

Results flagged for a closer look

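Dixon's test at 95% was applied to the 36 combinations of a gene and a group, and 4 held a library that lay far from the others; chance gives about 1 in 20. EGR1 was high in uninjured CD44high library 3 (265.35 CPM, next 180.92 CPM), and without it the log2 fold change of injury in CD44high Tregs was 0.64 (edgeR adjusted p = 0.0703) in place of 0.45. CD69 was low in uninjured CD44low library 1 (106.15 CPM, next 161.65 CPM), and without it the rise after injury in CD44low Tregs was 0.92 on the log2 scale (adjusted p = 2.62e-05). CD69 was also high in injured CD44high library 2 (290.8 CPM, next 238.54 CPM), and without it the rise in CD44high Tregs was 0.74 (adjusted p = 0.00793). CD83 was high in uninjured CD44high library 2 (370.49 CPM, next 297.68 CPM), and without it the rise in CD44high Tregs was 0.80 (adjusted p = 0.00764).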

How the results depend on the processing

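Apart from leaving out single libraries, 394 of 423 values of the 9 genes kept their direction and their side of the threshold, as did 801 of 855 with 1 library left out. CD69 and CD83 after injury, and CD83 and NFATC1 between subsets, were called in all of these fits. With a 2-fold change also required, 1 gene was called between uninjured and 1 between injured subsets, 0 after injury in CD44high and 2 in CD44low Tregs. The longest transcript kept 21 of 36 ranks of level.

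Replicate numbers were not taken to pair the libraries, as neither the labels nor the study's methods state a pairing. Only CD44high and CD44low libraries of the same injury state could come from the same mice. Deviations of same-numbered ones correlated at 0.0619 (2), 0.00103 (3), 0.119 (4) and -0.00685 (5) between the uninjured subsets. Between the injured subsets the values were 0.167 (2), 0.101 (4 and 4_2), 0.116 (5) and -0.0537 (5 and 5_2). Libraries of different numbers were not correlated for comparison, so these values cannot settle whether the libraries were paired. With a replicate block on the number, NR4A1 turned to 0.0226 between injured subsets. With a replicate block within uninjured or injured mice, 2 genes in place of 4 were called between injured subsets (EGR2 adjusted p = 0.0824, CD69 adjusted p = 0.0588), NR4A2 between uninjured subsets turned to 0.0702 and the CD83 difference in the effect of injury to 0.0610, all on the log2 scale. With the block on the number FASL after injury in CD44low Tregs was lost (adjusted p = 0.0693) and 440 of all genes were called there in place of 871, and with the block within mice 35 in place of 74 for the difference. The blocks changed no other call of the genes named.

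EGR2 between injured subsets was also lost with the compared groups alone (adjusted p = 0.0793) and after thinning (adjusted p = 0.0551), and EGR1 was called there with libraries 1_2, 4_2 and 5_2 alone (0.49, adjusted p = 0.0290).

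The other values that turned were not called in either fit. For NR4A1 after injury in CD44low Tregs they were 0.00117 with DESeq2, 0.00122 with RLE factors, 0.0157 without the filter, 0.0116 after thinning and 0.0591 without libraries 1_2, 4_2 and 5_2. Without these libraries NR4A2 and EGR3 between injured subsets became 0.112 and 0.0446, the differences in the effect of injury became 0.251 for NR4A2 and -0.0821 for EGR2, and GNAI2 after injury in CD44low Tregs became -0.0317. With them alone NR4A1 between injured subsets became 0.0196, EGR1, EGR2 and NFATC1 after injury in CD44low Tregs became -0.143, -0.426 and -0.0738, S1PR4 there became 0.126, and the CD83 difference became 0.149. NFATC1 in CD44low Tregs became -0.0198 with libraries 1 and 1_2, and 5 and 5_2, summed, and the NR4A2 difference became 0.0450 after thinning.

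With 1 library left out, between 2 and 4 genes were called between injured subsets. NR4A1 ranged from -0.0380 to 0.167 and from -0.130 to 0.0593 between uninjured and injured subsets, from -0.183 to 0.00564 and from -0.0697 to 0.146 after injury in CD44high and CD44low Tregs, and from -0.216 to 0.0201 for the difference. NR4A2 ranged from -0.265 to 0.0232, from -0.509 to 0.0881 and, for the difference, from -0.371 to 0.237. After injury EGR2 in CD44low Tregs ranged from -0.00259 to 0.241, EGR3 in CD44high Tregs from -0.142 to 0.304 and NFATC1 in CD44low Tregs from -0.0199 to 0.111.

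Over all genes DESeq2 called 477 for injury in CD44high Tregs against 273 by edgeR, 1453 against 871 in CD44low Tregs, and 215 against 74 for the difference; without libraries 1_2, 4_2 and 5_2 edgeR called 581, 1748 and 314, and with them alone 445 in CD44low Tregs and 136 for the difference. With the compared groups alone the counts were 601 and 463, and 476 in CD44high Tregs with libraries summed. With 1 library left out they fell to 152 in CD44high Tregs (injured CD44high 5) and 43 for the difference (injured CD44high 5), and ranged from 510 (uninjured CD44low 1) to 1893 (injured CD44low 5_2) in CD44low Tregs. The cause was not tested. NR4A2, NR4A3 and EGR3, at 13 to 183 reads a library, limit what small changes could be seen. Changes near 1.5-fold could be missed for the other genes as well, as such changes were mostly missed in the simulated counts. There the changed genes were few and drawn at random from all tested genes at any level. The recovery of the genes studied here was thus not measured.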
